A study of Drosophila melanogaster with 4 samples.

Results

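The left arms of the large Drosophila autosomes, 2L and 3L, held 362 of the 1371 Sin3A peaks deposited for Kc167 cells (26.4%), with 188 on 2L and 174 on 3L. Members were taken by chromosome arm alone, and the rule used no score, width, spacing or place along the arm. The arms and measures were chosen with earlier results of these data known. They are compared with the 356 peaks on 3R and the 286 on X. Kc167 is a Drosophila melanogaster cell line of embryonic origin, labelled female, with the genotype se/e and late embryonic as its labelled stage. The groups are 2 libraries of chromatin precipitated with the rabbit antibody Sin3A-RC and 2 libraries of input DNA, all from this line, and no group has another genotype or a treatment. The authors deposited 1 peak list for the whole series, with no values per library, so no value has a replicate error and the read depth is unknown.

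Sin3A is a large scaffold protein that does not bind DNA itself. Sequence-specific factors bring it to chromatin, where it holds the histone deacetylase HDAC1 (Rpd3 in flies) and partner proteins. Removal of acetyl groups from histones usually lowers transcription, although Sin3 is also found at active genes. The left and right arms of an autosome are joined at the centromere, with a telomere at each outer end, and coordinates on 2L, 3L and X rise from the telomere towards the centromere.

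The score is the authors' own value for each peak. Its statistic is not named, but tied scores across the list fell on a single series of −log10 Poisson tail probabilities. With 61.33 as the Poisson mean, 63 of 64 tied scores were matched to that series to 0.01 or better. A peak within 0.01 is described as scored on the common series, and any other as off it. The tied score left unmatched, 17.23, therefore counts as off although several peaks share it. MACS, the peak caller, can score a peak against a local background instead of the genome-wide one when the local one is higher, so scores on and off the series need not share a background. Neither the settings used nor the input signal is in the list. All p-values below take peaks as the units and describe this list, not the spread between cultures. With arms as the units, 2 against 2, an exact permutation test cannot go below 0.333.

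Both left arms were sparse in Sin3A peaks, and they did not differ detectably from each other. Per 100 protein-coding genes, 2L carried 7.08 peaks and 3L 6.35, against 10.5 on 3R and 13.0 on X. The rate on 2L was 0.675 times that on 3R (95% exact interval 0.563 to 0.808) and 0.543 times that on X (0.449 to 0.655). The rate on 3L was 0.606 times that on 3R (0.503 to 0.728) and 0.487 times that on X (0.401 to 0.590). Each of these 4 ratios passed a two-sided exact conditional binomial test adjusted over 6 pairs of arms, with the weakest at an adjusted p of 1.51e-05. That test takes peak counts as Poisson. Per 1 Mb window the variance was 3.34 times the mean on 2L, 4.64 on 3L, 2.14 on 3R and 4.51 on X. The intervals of these ratios are therefore too narrow and the p-values too small. Between 2L and 3L the ratio was 1.11 (0.902 to 1.38, exact test, adjusted p = 0.318). Counted per Mb from first to last peak, without genes, the ratios of the left arms to 3R and X lay between 0.556 (3L to X) and 0.6545 (2L to 3R). In covered sequence, peaks took up 3419 bp per Mb on 2L and 3067 bp per Mb on 3L, measured from an arm's outermost peak to its innermost. The same measure was 5409 bp per Mb on 3R and 5926 bp per Mb on X.

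Peaks scored on the common series were rarer still on the left arms. There were 3.5 of them per 100 protein-coding genes on 2L and 4.38 on 3L, against 9.04 on 3R and 11.5 on X. In that class alone, chosen after the data were seen, the ratios to 3R and X lay between 0.305 (2L to X) and 0.485 (3L to 3R). Peaks off the series ran the other way, at 3.58 per 100 genes on 2L, 1.97 on 3L, 1.44 on 3R and 1.55 on X.

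**Figure D1:**
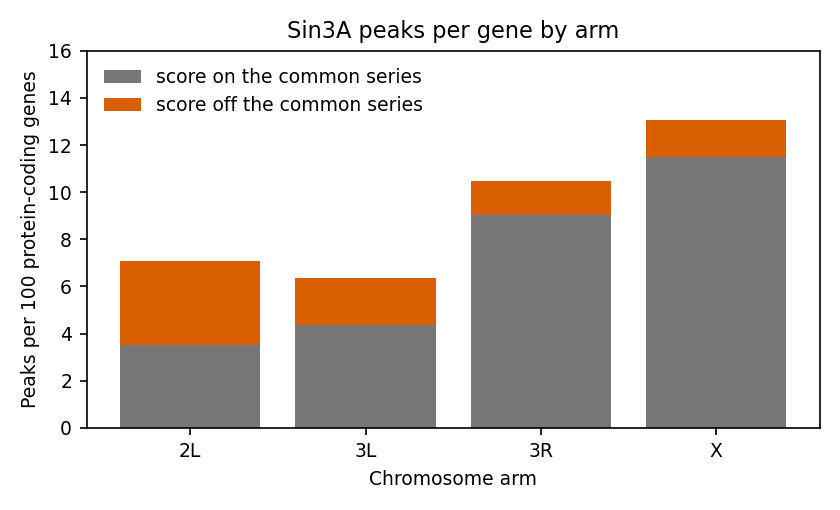
Sin3A peaks per 100 protein-coding genes on each arm, with the part scored on the common series in grey and the part scored off it stacked in orange. The bars of 2L (7.08) and 3L (6.35) are lower than those of 3R (10.5) and X (13.0), and orange makes up more of them.

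The 2 highest left-arm peaks were on 3L, whereas from the third peak of each arm to the fifth the scores of 2L were higher. On 3L the leading peak, chr3L:16581198-16581699 (release 5 coordinates, as for all positions here), was 502 bp wide and scored 100.6. The next, at chr3L:1350205-1350905, was 701 bp wide and scored 97.9. The other 3 of the upper 5 dropped to 61.4 (chr3L:20295096-20295712), 59.8 (chr3L:3224860-3225759) and 55.7 (chr3L:1302478-1303057). Of these 5 only the peak at 59.8 was scored off the common series, and the peaks at 97.9 and 55.7 lay together in a stretch of 48.4 kb.

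No such gap separated the leading peaks of 2L. Its highest, chr2L:13176654-13177288, was 635 bp wide, scored 73.1 and was off the common series. A pair at chr2L:20449845-20450325 and chr2L:20458982-20459447, 8.66 kb apart, shared the score 67.3 and was on the series. The next in order, chr2L:20349921-20350513 (65.7) and chr2L:18695221-18695850 (63.7), were off it. The upper 5 of 2L therefore lay on the centromere side of its midpoint, and 3 of them, the pair and the peak at 65.7, in a stretch of 109.5 kb. For comparison, the highest peak of 3R scored 111.0 and that of X 131.2. Among the 10 highest peaks of the whole list 2 were on 3L and 0 on 2L, and among the 100 highest 24 were on the left arms. Of all peaks in the list, 26.4% were on the left arms, 13.7% on 2L and 12.7% on 3L, so the 24 are near that share.

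The single widest peak of each arm was not its highest, although the third-widest of 3L was among its upper 5 by score. On 2L the widest spanned chr2L:15746699-15748154 (1456 bp, score 54.0), followed by chr2L:12435284-12436346 (1063 bp, score 38.5) and chr2L:16887824-16888837 (1014 bp, score 51.3). On 3L the widest, chr3L:15534349-15536458, measured 2110 bp at a score of 35.9. It was followed by chr3L:19902531-19903481 (951 bp, score 25.1) and by the peak at 59.8 named above (900 bp). At the other extreme, 8 of the 362 left-arm peaks had the minimum width of the list, 201 bp, as did 34 of all 1371 peaks. The lowest scores were 6.84 (chr2L:3076487-3076807) and 7.0 (chr2L:19756535-19756782) on 2L, and 7.54 (chr3L:871956-872170) and 7.85 (chr3L:5597161-5597395, tied with chr3L:13479522-13479772) on 3L.

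In the bulk of the peaks, scores on the left arms did not separate from those on 3R and X. The median score was 16.95 on 2L (95% order-statistic interval 14.9 to 18.6) and 18.7 on 3L (15.8 to 20.2), against 18.0 on 3R (16.5 to 19.2) and 18.6 on X (16.9 to 20.2). Above the median of the 4 arms, a score of 17.97, lay 174 of the 362 left-arm peaks (48.1%), 322 of the 642 on 3R and X (50.2%) and 48.7% of all peaks on the 6 arms. The difference of -2.09 percentage points had an interval of -8.48 to 4.34 (Fisher's exact test, adjusted p = 0.554 over 5 measures). With peaks merged within 20 kb it was -10.8 points and passed (Fisher's exact test, adjusted p = 0.0334). A merged region takes the highest score of its peaks, and merging left 226 regions on the left arms and 351 on 3R and X. More peaks are joined per region where peaks are denser, and the part of this in the difference was not tested. Scores over 50 were reached by 13 peaks on 2L (6.91%) and by 6 on 3L (3.45%), compared with 27 on 3R (7.58%) and 20 on X (6.99%). On the left arms together the share was 5.25%, near the 5.62% of the whole list.

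Width gave a lower value on 2L than elsewhere, without passing the test over all peaks. The median width was 335.5 bp on 2L (interval 317 to 376 bp) and 380.5 bp on 3L (343 to 415 bp), compared with 381.0 bp on 3R and 380.5 bp on X. Wider than the median of the 4 arms, 375 bp, were 43.6% of peaks on 2L and 50.6% on 3L, against 51.4% on 3R, 51.7% on X and 50.3% on the 6 arms together. The differences of 2L from 3R (-7.79 points, interval -16.4 to 1.04) and from X (-8.13 points, -17.1 to 1.06) each had an adjusted p of 0.228 in Fisher's exact test over 5 pairs. In the 50% of peaks with the highest score the difference shrank to -0.0602 points from 3R (-12.7 to 12.7) and -0.0793 points from 3L (-14.6 to 14.5), each with an adjusted p of 1.00 in Fisher's exact test. From X the difference in those peaks was -5.87 points (-18.9 to 7.35) and did not pass either.

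Among peaks on the common series only, 2L stood lower in width. Its 93 such peaks had a median width of 318 bp, compared with 372 bp for the 120 on 3L, 382 bp for the 307 on 3R and 378.5 bp for the 252 on X. The share above the median width of this class was 34.4% on 2L. It was 60 of 120 on 3L, 53.1% on 3R and 52.0% on X, and 2L differed from each in Fisher's exact test (adjusted p = 0.0434, 0.00997 and 0.0126). Peaks off the series on 2L had a median width of 406 bp and those of 3L 404 bp.

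**Figure D2:**
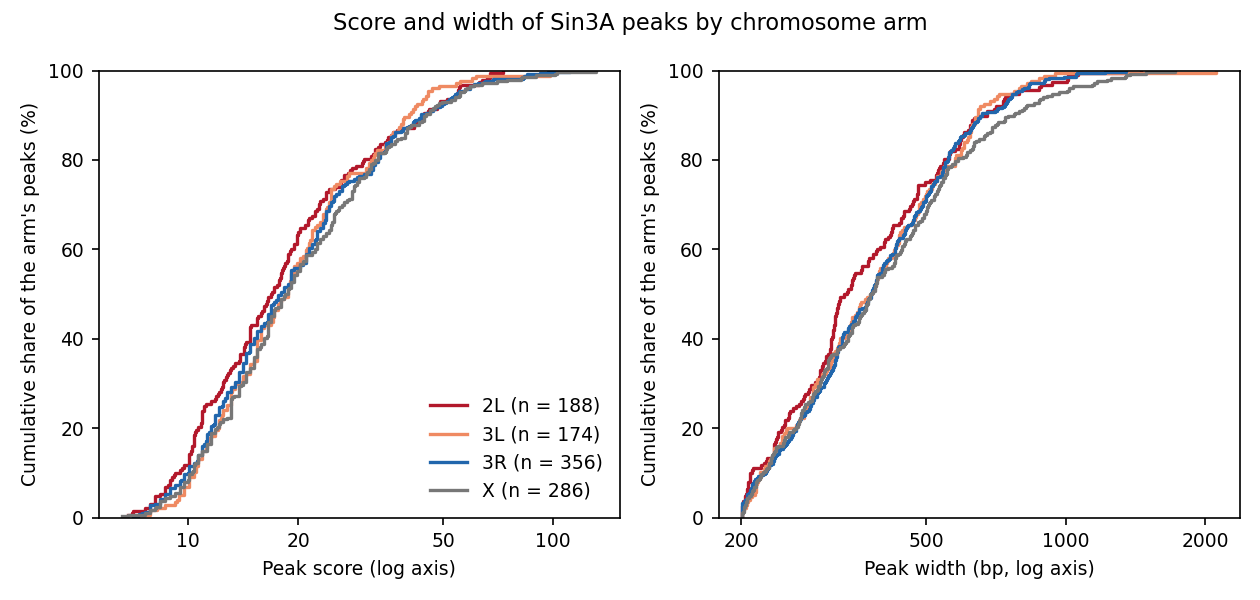
Cumulative share of each arm's peaks (vertical axis, %) by score (left, log axis) and by width in bp (right, log axis), with 1 line per arm. The lines for 3L, 3R and X run close together up to their medians, and around the median the line for 2L runs to their left, with a median width of 335.5 bp against 380.5 to 381.0 bp.

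Score and width rose together on both left arms. The Spearman correlation across peaks was 0.676 on 2L (n = 188) and 0.707 on 3L (n = 174), within the range of 0.673 on 3R and 0.725 on X. Pearson's r was 0.620 on 2L and 0.497 on 3L. These are descriptions across peaks, and the caller sets both values for a peak.

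**Figure D3:**
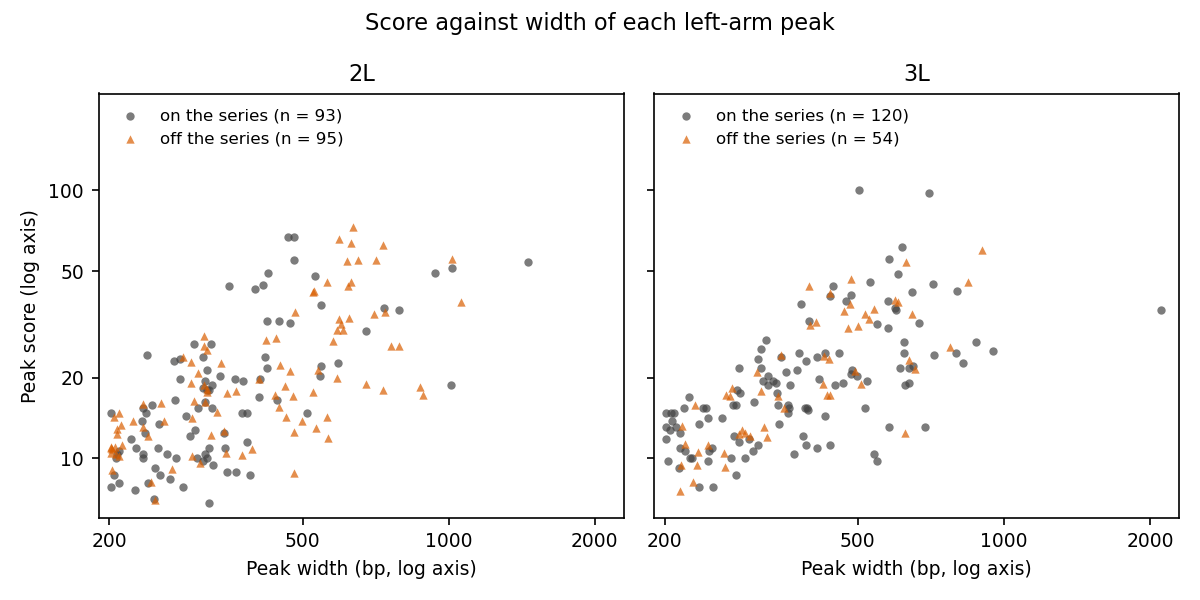
Score (vertical, log axis) against width in bp (horizontal, log axis) for each peak of 2L and 3L, with peaks on the common series as grey circles and those off it as orange triangles. The classes overlap over most of the range, both scores above 73.1 (97.9 and 100.6, on 3L) belong to peaks on the series, and the 2110 bp peak of 3L stands alone at the right.

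The share of peaks scored off the common series separated the left arms from 3R and X more than any other measure taken. It was 50.5% on 2L (95 of 188 peaks, exact interval 43.2 to 57.9%) and 31.0% on 3L (54 of 174, 24.3 to 38.5%). The value was 13.8% on 3R (10.4 to 17.8%), 11.9% on X (8.38 to 16.2%) and 23.6% over the 6 arms. The share was uneven along the arms. On 3L, 41 of the 54 lay in the first 4 Mb, and in the first 10 Mb of 2L the share was 17.3%. Among 1 Mb windows with at least 5 peaks, 50% or more were off the series in 8 of 16 on 2L and 4 of 17 on 3L. On 3R 2 of 28 such windows reached this, and on X 1 of 21. The left arms together exceeded 3R and X by 28.2 points (interval 22.5 to 33.9, Fisher's exact test, adjusted p = 7.38e-23). Between 2L and 3L the difference was 19.5 points (9.38 to 29.0, Fisher's exact test, adjusted p = 0.000183). Both tests take peaks as independent, although peaks off the series lay together in stretches of several Mb. Their intervals are therefore too narrow and their p-values too small, and merging within 20 kb does not reach stretches of that length. Median scores on and off the series were 15.5 and 17.8 on 2L, and 18.3 and 18.99 on 3L. If the score is read as above, peaks on the series reached a median of 2.20 times the common mean on 2L and 2.33 times on 3L, with highest values of 3.95 and 4.79.

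Peaks were placed differently along the 2 left arms. On 2L only 64 of 188 peaks (34.0%, interval 27.3 to 41.3%) lay on the telomere side of the midpoint between its outermost and innermost peaks. On 3L that side held 98 of 174 (56.3%, 48.6 to 63.8%), on 3R 48.9%, on X 44.1% and on the 5 large arms together 45.2%. The difference, 2L minus 3L, was -22.3 points with an interval of -31.9 to -12.1 (Fisher's exact test, adjusted p = 0.000114). The share on 2L was also below that on 3R (adjusted p = 0.00263) and X (adjusted p = 0.0437), and that on 3L above X (adjusted p = 0.0206), by the same exact test. Compared with 3R, the 3L value differed by 7.45 points (-1.61 to 16.3, Fisher's exact test, adjusted p = 0.116). With peaks merged within 20 kb the difference between 2L and 3L was -10.7 points and no longer passed (Fisher's exact test, adjusted p = 0.218), nor did 2L minus 3R, 2L minus X or 3L minus X. Merging within 1 kb left 3L minus X at 9.39 points (Fisher's exact test, adjusted p = 0.0894).

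The difference was found in the peaks off the common series. On 2L 17 of 95 such peaks lay on the telomere side (17.9%, interval 10.8 to 27.1%), and on 3L 43 of 54 did (79.6%, 66.5 to 89.4%). Off the series the share on 3L also exceeded the 51.0% on 3R (28.6 points, Fisher's exact test, adjusted p = 0.00416). Peaks on the series were split almost evenly, at 50.5% on 2L and 45.8% on 3L, compared with 48.5% on 3R and 45.6% on X. Among these the difference between 2L and 3L was 4.70 points the other way, with an interval of -8.67 to 17.9 (Fisher's exact test, adjusted p = 1.00). Seen by side, 62.9% of the peaks on the centromere side of 2L were off the series and 26.6% on its telomere side (Fisher's exact test, adjusted p = 1.75e-05). On 3L the telomere side had 43.9% and the centromere side 14.5% (Fisher's exact test, adjusted p = 9.14e-05). A likelihood-ratio test of arm by side over the left-arm peaks (n = 362) gave p = 1.61e-10 for this reversal. The comparisons by class and by side were chosen after the data were seen. They take neighbouring peaks as independent, although peaks off the series lay together in stretches, and they have no value with merged regions.

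**Figure D4:**
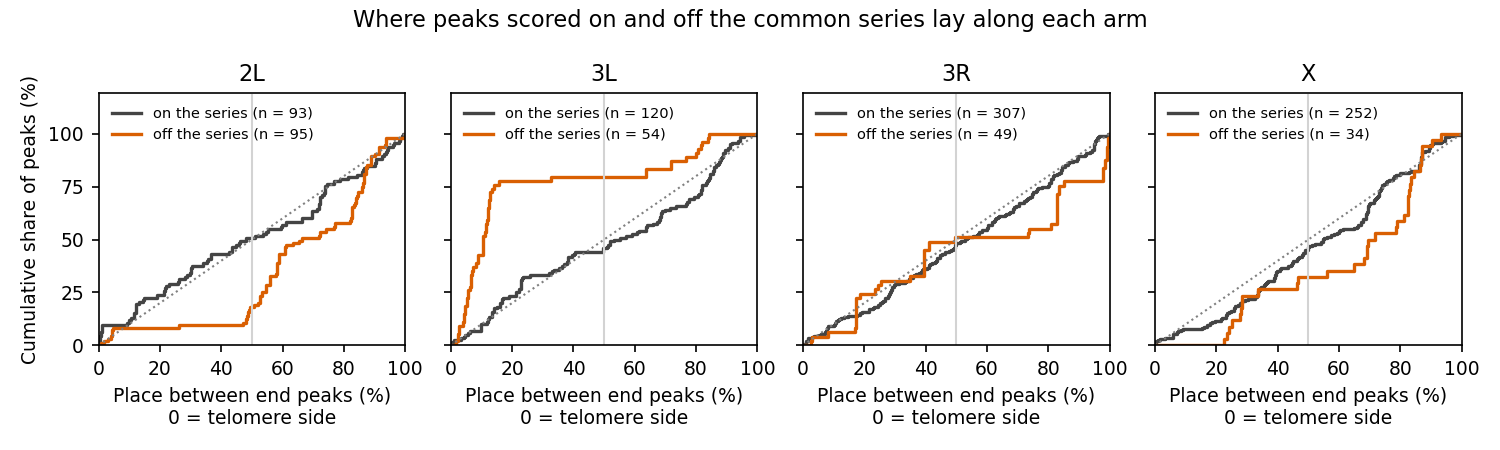
Cumulative share of peaks (vertical axis, %) by place between the outermost and innermost peak of an arm (horizontal axis, %, 0 at the telomere side), with peaks on the common series in grey, those off it in orange and even spacing dotted. Grey reaches 45.6 to 50.5% by the middle of all 4 arms, whereas orange rises late on 2L (17.9% by the middle) and early on 3L (79.6% by the middle).

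On 2L peaks were dense in 2 stretches, from 11 to 14 Mb and from 16 to 22 Mb, with a thinner one between them. In 1 Mb windows, 14 to 15 Mb held 2 peaks and 15 to 16 Mb held 6, and the first window of the arm held 12. The second stretch was uneven: 17 to 18 Mb held 5 peaks, and 16 to 17 Mb held 16, with 25% off the common series. The first 10 Mb held 52 peaks, or 5.20 per Mb, of which 17.3% were off the common series and none scored above 48.0. From 11 to 14 Mb there were 40 peaks, 13.3 per Mb, with 82.5% off the series and a median score of 14.35. From 16 to 22 Mb there were 75 peaks, 12.5 per Mb, with 60.0% off the series and a median score of 19.2. The fullest 1 Mb window, from 19 to 20 Mb, held 20 peaks, and 65.0% of them had a neighbour within 5 kb. All such stretches were picked by eye from counts in 1 Mb windows, so they carry no test.

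On 3L the peaks were gathered in the first 6 Mb and, less densely, from 19 to 23 Mb. The first 6 Mb held 81 of 174 peaks (46.6%), or 13.5 per Mb, a density close to the 12.8 and 13.1 per Mb of 3R and X as whole arms. Up to 4 Mb, 65.1% of peaks were off the common series, whereas 1 of the 18 peaks from 4 to 6 Mb was, at the tied score 17.23. The long middle from 6 to 19 Mb held 50 peaks, 3.85 per Mb, yet it included the highest peak of the arm. From 19 to 23 Mb the density was 10.2 per Mb, with 14.6% off the series. Beyond it, the windows from 23 to 24 Mb and from 24 to 25 Mb held 1 peak each. Per 1 Mb window, counts ran from 0 to 22 with a median of 6.0 on 3L and from 1 to 20 with a median of 7.5 on 2L. The medians of 3R and X were 12.0 and 13.0.

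Long empty stretches took up more of the left arms than of the others. Distances over 500 kb between neighbouring peaks numbered 8 on 2L and 9 on 3L, and together made up 29.7% and 33.7% of the stretch from first to last peak. On 3R there were 2 (4.26%) and on X 5 (16.2%). Sparser arms tend to have more distances past a fixed limit, and the part of peak density in these shares was not tested. The longest on 3L ran for 2.17 Mb (chr3L:9965624-12131536), for 1.42 Mb (chr3L:6481836-7905070) and for 1.06 Mb (chr3L:23177441-24237066). The last of these separates the final peak of the arm, chr3L:24237067-24237316 with a score of 10.9, from all others. On 2L the longest ran for 1.33 Mb (chr2L:8366068-9699381), 1.04 Mb (chr2L:1170252-2213905) and 0.992 Mb (chr2L:3466119-4458507), each on its telomere side. The peaks at both borders of the longest stretch scored 14.8 and 10.9 on 2L, and 15.5 and 32.6 on 3L. The outermost peaks were chr2L:155328-155647 (10.9) and chr2L:22602156-22602360 (11.1) on 2L, and chr3L:264064-264433 (10.3) at the start of 3L.

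Near neighbours were counted by the distance between midpoints. Within 5 kb of another peak lay 33.5% of peaks on 2L (63 of 188) and 24.7% on 3L (43 of 174), against 35.7% on 3R, 32.5% on X and 32.1% on the 6 arms. The left arms together minus 3R and X gave -4.99 points (interval -10.8 to 1.06, Fisher's exact test, adjusted p = 0.268), and 3L minus 3R gave -10.96 points (-18.7 to -2.55, adjusted p = 0.0655). Both shorter and longer limits gave a difference that passed. Within 1 kb lay 7.45% of peaks on 2L and 7.47% on 3L, compared with 14.6% on 3R and 12.9% on X (left arms -6.40 points, Fisher's exact test, adjusted p = 0.00503). Within 20 kb the shares were 61.7% on 2L, 52.9% on 3L, 64.3% on 3R and 70.6% on X (-9.68 points, Fisher's exact test, adjusted p = 0.00656). With peaks merged within 1 kb and the limit at 5 kb the pooled difference turned to 0.603 points (Fisher's exact test, adjusted p = 0.868). Peak density itself was lower on the left arms, at 8.38 per Mb on 2L and 7.26 per Mb on 3L, and its part in these differences was not tested.

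**Figure D5:**
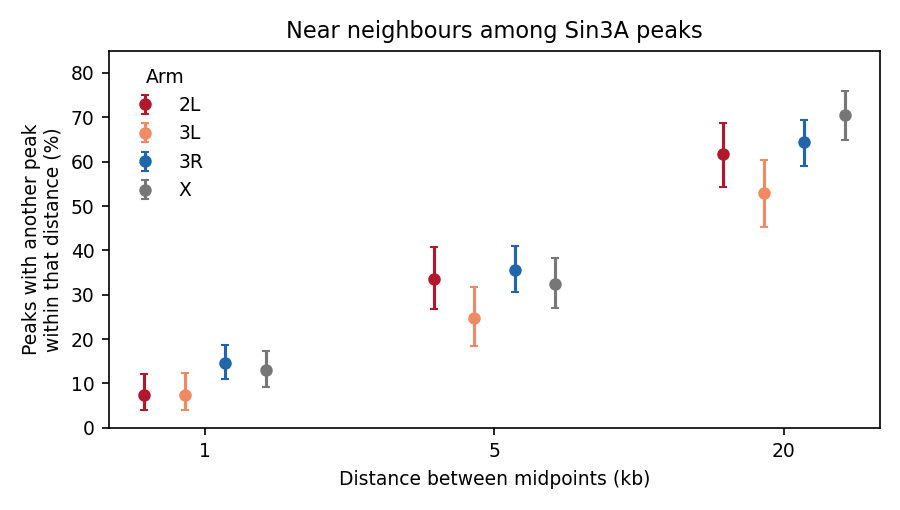
Share of each arm's peaks (vertical axis, %) with another peak's midpoint within 1, 5 or 20 kb (horizontal axis), as points with bars for exact 95% intervals of counting error. The points of 3L are below those of 3R and X at each distance, and the points of 2L are below both at 1 kb and 20 kb and between them at 5 kb.

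Runs of neighbouring peaks within 5 kb were short. There were 26 runs of at least 2 peaks on 2L and 19 on 3L, and the longest held 5 and 4 peaks. The run of 5 on 2L, chr2L:19577307-19587448, extended over 10.1 kb with scores of 35.2, 14.2, 26.3, 25.3 and 8.92 in order of position. On 3L the run of 4, chr3L:15528867-15537218, extended over 8.35 kb with scores of 27.2, 12.4, 35.9 and 12.4. It includes the widest peak of the list, and covers 3.90 kb with peaks against 1.68 kb for the run on 2L. The fullest 100 kb windows held 7 peaks each on 2L, in the windows 16.3 to 16.4 Mb and 19.5 to 19.6 Mb. The fullest of 3L, from 1.3 to 1.4 Mb, held 6 and included the second-highest peak of the arm. Another 4 windows of 3L held 5 peaks each, with scores up to 40.8.

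Peaks with a neighbour were not resolved from isolated ones by score on the left arms. The median score was 18.0 for 106 peaks with a neighbour within 5 kb and 17.6 for 256 without. Scores above the 4-arm median were reached by 49.1% and 47.7% of them, a difference of 1.40 points (interval -9.74 to 12.6, Fisher's exact test, p = 0.818). Peaks with a neighbour made up 33.7% of those on the telomere side of 3L and 13.2% of those on its centromere side (Fisher's exact test, adjusted p = 0.00476 over 6 tests, chosen after the data were seen). On 2L those shares were 29.7% and 35.5% (Fisher's exact test, adjusted p = 0.618).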

How the data were processed

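Chromatin of Kc167 cells was cross-linked with formaldehyde and sonicated, then precipitated with an antibody against Sin3A (2 libraries) or kept as input DNA (2 libraries), per the labels' protocols. CASAVA 1.7.0.2 and 1.7.0.3, BWA, MACS2 and the build BDGP5 are named in the submitters' processing notes, without settings. The deposited file is 1 list of peaks with a score for each from the authors' peak caller and, per the file headers, FlyBase release 5 coordinates. Start and end positions in the deposited list are 1-based. Whether replicates were pooled, where the threshold was set and whether duplicate reads were kept is not given in the sources used here, and each could move the number of peaks. A peak list holds only regions past the caller's threshold, so regions under it have no value.

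Peaks on 2L and 3L were kept by name. The common series was the set of −log10 Poisson tail probabilities that took in the most scores shared by at least 6 peaks. Shares of peaks were compared by two-sided Fisher's exact tests with Newcombe 95% intervals, peak rates by exact conditional binomial tests, and medians have order-statistic intervals. Shares of single arms have Clopper-Pearson intervals, which cover counting error only. Benjamini-Hochberg adjustment was over 5 pairs of arms, 6 pairs for rates, or 5 measures where the left arms were pooled, with a threshold of 0.05. Neighbouring peaks are not independent, and merged regions were therefore tried. Each merged region took the highest score of its peaks, and that peak decided whether the region was on or off the common series. Gene numbers per arm come from a RefSeq table of release 6 and served only as denominators. That build differs from the peaks' own, so no peak was assigned to a gene and no sequence was read. The genes counted on an arm need not cover the same sequence as its peaks.

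The regions named are the 5 highest, 3 widest and 2 lowest-scoring peaks of each arm, its longest run, fullest 100 kb windows, longest empty stretches and end peaks. The members and these rules were chosen with earlier results of these data known. Computations used Python 3.11.15, NumPy 2.4.6, SciPy 1.17.1, pandas 2.3.3, statsmodels 0.14.6 and Matplotlib 3.10.9. The series fit, Fisher's exact test and the rate test were tried on simulated data with independent peaks. Those data had no clustering along an arm, and the likelihood-ratio test was not tried on them.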

Additional observations from a re-analysis of the deposited data

Results flagged for a closer look

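The share of peaks on the telomere side of the arm's midpoint differed between 2L and 3L by -22.3 percentage points (34.0% against 56.3%, Fisher's exact test, adjusted p = 0.000114). Both arms are compared within 1 list. With peaks merged within 20 kb the difference was -10.7 points and no longer passed (Fisher's exact test, adjusted p = 0.218).

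The share of peaks scored off the common series ran in opposite directions along the 2 arms. Telomere side minus centromere side, it was -36.3 points on 2L and 29.4 points on 3L. The contrast between the arms was 65.7 points (3L minus 2L, likelihood-ratio test of arm by side, n = 362, p = 1.61e-10). That test takes neighbouring peaks as independent and has no value with merged regions.

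Outside the sequences compared, 3 peaks lay on 3LHet, which release 5 keeps apart as heterochromatin of 3L, and the list names none on 2LHet. They scored 8.92, 10.1 and 13.1, each on the common series and each under the median score of 3L, 18.7. The list has no control value for them.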

How the results depend on the processing

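Of 211 recomputed values, 150 kept direction and side of the threshold. Among 14 results past the threshold, 63 of 76 recomputed values did, 10 no longer passed and 3 turned direction. The lower peak rate of each left arm against 3R and X, and the higher share of peaks off the common series on both left arms, passed under each alternative run for them. None of these alternatives allows for clustering over stretches of several Mb. Values below are differences in percentage points (adjusted p from Fisher's exact test in brackets where it decides a call), and the cause of each move was not tested.

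Telomere-side share: merging within 20 kb gave -10.7 for 2L minus 3L (0.218), -11.9 for 2L minus 3R, -9.55 for 2L minus X and 1.18 for 3L minus X, none passing, and -1.12 for 3L minus 3R. Merging within 1 kb gave 9.39 for 3L minus X (0.0894), and the 50% of peaks with the highest score 13.7 (0.0556). With 2L alone on the left side the pooled difference was -12.7 (0.00501), with 3L alone 9.59 (0.0439), and against X alone 0.695. Chosen after the data were seen were 3 further settings. Counting the outer 0.333 of the arm gave 8.53 for the pooled difference (0.0131), 19.1 for 3L minus 3R (3.65e-05), -6.37 for 2L minus 3R and -0.372 for 2L minus X. Peaks off the common series gave 28.6 for 3L minus 3R (0.00416) and -14.5 for 2L minus X (0.0928). Peaks on it gave 1.20 pooled, 4.70 for 2L minus 3L, 2.98 for 2L minus 3R, 4.90 for 2L minus X, -1.72 for 3L minus 3R and 0.198 for 3L minus X, none passing.

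Near neighbours: a limit of 1 kb gave -6.40 pooled (0.00503), -0.0245 for 2L minus 3L and -5.49 for 2L minus X; a limit of 20 kb gave -9.68 pooled (0.00656), -11.5 for 3L minus 3R (0.0344), -17.8 for 3L minus X (0.000709) and -8.93 for 2L minus X. Merging within 1 kb turned the pooled difference to 0.603 and 2L minus 3R to 3.53, and let 2L minus 3L (12.3, 0.0298), 2L minus X (10.3, 0.0311) and 3L minus 3R (-8.76, 0.0431) pass. 3L alone gave -9.56 (0.0436), and the 50% with the highest score 4.66 for 2L minus 3R. Peaks on the common series, chosen afterwards, gave -9.98 pooled (0.0345), -12.4 for 3L minus 3R (0.0331), -12.9 for 3L minus X (0.0331) and -6.85 for 2L minus X.

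Score: merging within 20 kb gave -10.8 pooled (0.0334), -7.36 for 3L minus 3R and -14.4 for 3L minus X; merging within 1 kb gave -1.72 for 3L minus X. With heterochromatic sequences added the values were 0.111 pooled, 0.737 for 2L minus 3R and -1.20 for 3L minus X. The 75th percentile as limit gave -1.73 and -3.93 for 3L minus 3R and minus X, and peaks without a neighbour, chosen afterwards, -6.93 and -2.17, with -15.0 for 2L minus 3R (0.0384). 3L alone gave 0.994, and peaks on the common series -1.19 for 3L minus X. Near minus isolated left-arm peaks turned to -19.9 at 1 kb (27 near peaks, exact p = 0.0699).

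Width: peaks on the common series gave -15.6 for 2L minus 3L (0.0434), -18.7 for 2L minus 3R (0.00997) and -17.6 for 2L minus X (0.0126), and the 50% with the highest score -0.0793, -0.0602 and -5.87 for those 3 pairs and 0.0192 for 3L minus 3R, none passing. The ratio of peak rates, 2L over 3L, turned to 0.985 in the 50% with the highest score and to 0.80 on the common series, without passing.

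No paired analysis was possible because libraries have no values of their own in the peak list, which also kept replicates from being left out. Merging within 20 kb gave no value for near neighbours. Depth is unknown, and any region under the caller's threshold is unseen.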
